A study of Mus musculus with 8 samples.

Results

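*Gpnmb* and 9 genes expressed by microglia (*Cx3cr1*, *P2ry12*, *Csf1r*, *Tmem119*, *C1qa*, *C1qb*, *C1qc*, *Trem2* and *Tyrobp*) were examined in ribosome-associated mRNA pulled down from parvalbumin-expressing (PV+) interneurons of the mouse somatosensory cortex. These 10 genes of the 45706 in the expression matrices were taken by gene symbol. *Gpnmb* was selected on its normalized counts, because it had been higher with clozapine-N-oxide (CNO) than with vehicle in these same samples, so its difference between the groups is given as a description with no test. The question was whether *Gpnmb*, often measured as a gene of microglia, moved together with genes that mark microglia.

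All 8 samples came from *Pvalb* Flp/+, *Neurod6* Cre/+ mice that had received an adeno-associated virus in the primary somatosensory cortex at postnatal day 1. The virus carried the ribosomal protein RPL10A with a haemagglutinin (HA) tag and the activating receptor hM3Dq with a myc tag, behind the pan-neuronal hSyn promoter. Flp recombinase switched the construct on in PV+ cells, and Cre recombinase removed it from *Neurod6*-expressing pyramidal cells. Receptor and tag were therefore present in both groups. From postnatal day 42 to 70, mice received 5 injections over about 48 h of either vehicle (VEH, n = 4 samples) or 1 mg per kg CNO (n = 4 samples), the ligand of the receptor. Each sample combined the cortex of 4 mice. Between 44064161 and 49413273 estimated counts were assigned to genes per sample, so that 3 counts corresponded to 0.0607 to 0.0681 CPM (counts scaled to library size). Of the markers of PV+ interneurons, *Pvalb* was at 907.4 TPM (mean of 8 samples) and *Gad1* at 1227 TPM, although *Slc17a7*, the glutamate transporter of pyramidal cells, was also present (433.4 TPM). Vehicle replicate 1 stood apart from the other samples, with the lowest PV+ interneuron markers and the largest share of its counts (28.3%, against 17.6% to 23.8%) in the 2 genes with the most counts, *Trp53bp1* and *Bcar1*, which are named after their values were seen. Values without it are given where they bear on a result.

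*Gpnmb* encodes a transmembrane glycoprotein of endosomes, lysosomes and the cell surface that is related to the pigment cell protein PMEL, and it is a known target of the transcription factor MITF. In the brain it is best known as a gene that rises in phagocytes, including microglia around plaques and damaged myelin, although its transcripts have also been found in other cells. Microglia are the resident macrophages of the brain and can be followed by their receptors for fractalkine, nucleotides and colony-stimulating factors, by the chains of complement C1q that they secrete, and by the lipid receptor TREM2 with its signalling partner DAP12. The virus used here does not target microglia, and microglial transcripts in an anti-HA pulldown of neurons can only be read as what the eluate held.

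*Gpnmb* lies on chromosome 6 (GRCm38, 49036546 to 49070929, plus strand) and overlaps no other annotated gene. *C1qb* (136880129 to 136886187), *C1qc* (136889804 to 136893065) and *C1qa* (136895917 to 136898803) are neighbours on the minus strand of chromosome 4. *Trem2* lies on chromosome 17 (48346401 to 48354147, plus strand), *Tyrobp* on chromosome 7 (30413760 to 30417585, plus strand), *Tmem119* on chromosome 5 (113793729 to 113800516, minus strand), *P2ry12* on chromosome 3 (59216272 to 59262871, minus strand) and *Cx3cr1* on chromosome 9 (119901616 to 120069879, minus strand). The span of *P2ry12* falls within that of *Med12l* on the other strand, *Cx3cr1* overlaps 9 annotated genes, and *Csf1r* overlaps *Hmgxb3* on the other strand. The library kit does not mark strand, so reads from stretches that these genes share with a gene on the other strand cannot be told apart. Of the 31-base stretches in the transcripts of *Csf1r*, 14.9% also occur in transcripts of other genes, against 3.28% for *Cx3cr1*, 0.739% for *Gpnmb* and 0% for *P2ry12*.

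RefSeq (GRCm38.p6) gives a promoter window, 250 bases before the start site and 50 after it, for 6 of the 10 genes (*Gpnmb*, *Cx3cr1*, *P2ry12*, *C1qb*, *C1qc* and *Trem2*). The 250 upstream bases of *Gpnmb* (chr6:49036268-49036517, plus strand) are shown, 5′ to 3′, beside those of *P2ry12* (chr3:59262986-59263235, minus strand), *C1qb* (chr4:136886201-136886450, minus strand), *C1qc* (chr4:136892915-136893164, minus strand) and *Trem2* (chr17:48346151-48346400, plus strand), so that the gene that was higher with CNO can be set beside microglial genes that were not. Capitals mark matches, on either strand, to CACGTG (an E-box), CATGTG (the core of the M-box bound by MITF) or GAGGAA (a core bound by the macrophage factor PU.1).
Gpnmb: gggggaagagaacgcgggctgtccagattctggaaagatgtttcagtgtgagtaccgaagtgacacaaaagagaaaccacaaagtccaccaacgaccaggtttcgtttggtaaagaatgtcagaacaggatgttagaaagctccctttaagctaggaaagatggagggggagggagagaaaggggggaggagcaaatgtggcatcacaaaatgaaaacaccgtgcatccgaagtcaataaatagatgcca
P2ry12: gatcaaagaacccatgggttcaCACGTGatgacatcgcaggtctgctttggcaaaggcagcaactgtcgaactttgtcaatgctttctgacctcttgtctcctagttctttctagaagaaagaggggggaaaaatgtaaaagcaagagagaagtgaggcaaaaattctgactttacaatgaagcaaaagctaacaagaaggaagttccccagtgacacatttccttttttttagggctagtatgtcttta
C1qb: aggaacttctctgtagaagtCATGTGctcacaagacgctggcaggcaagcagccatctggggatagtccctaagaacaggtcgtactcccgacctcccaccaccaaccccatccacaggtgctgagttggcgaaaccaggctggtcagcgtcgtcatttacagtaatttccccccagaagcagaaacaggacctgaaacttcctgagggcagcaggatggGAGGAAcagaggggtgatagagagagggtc
C1qc: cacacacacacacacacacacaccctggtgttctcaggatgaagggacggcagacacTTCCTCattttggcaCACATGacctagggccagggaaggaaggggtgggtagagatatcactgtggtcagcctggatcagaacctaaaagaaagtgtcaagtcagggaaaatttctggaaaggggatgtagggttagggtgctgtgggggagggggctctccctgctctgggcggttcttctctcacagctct
Trem2: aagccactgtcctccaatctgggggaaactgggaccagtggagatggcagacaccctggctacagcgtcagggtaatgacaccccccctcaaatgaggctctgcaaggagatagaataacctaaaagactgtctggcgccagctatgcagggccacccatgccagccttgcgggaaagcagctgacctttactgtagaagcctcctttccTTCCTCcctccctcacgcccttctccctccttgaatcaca
None of these 3 motifs was present in the windows of *Gpnmb* and *Cx3cr1*, the latter not shown. The AP-1 motif TGACTCA, searched in the same way, matched in *Gpnmb* only among the 6 genes, at bases 9 to 15 after the start site and so beyond the stretch shown. Of 32851 promoter windows of the same length, 5.20% held the AP-1 motif, 7.15% CACGTG, 14.2% CATGTG and 28.3% GAGGAA. The motifs were chosen after the sequences and the expression values had been seen, and a match describes letters only.

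*Gpnmb* was higher in every CNO sample than in any vehicle sample, and was a gene of low abundance in both groups. Levels are given in TPM (the relative abundance of transcripts), a scale that takes transcript length into account. With CNO, *Gpnmb* stood at 4.08, 2.72, 4.15 and 5.31 TPM in replicates 1 to 4. With vehicle, it stood at 1.04, 2.35, 2.08 and 1.66 TPM. The lowest CNO sample (replicate 2) lay just above the highest vehicle sample (also a replicate 2), and vehicle replicate 1 was the lowest of all. The means were 4.07 ± 1.06 TPM with CNO against 1.78 ± 0.57 TPM with vehicle (SD, n = 4 each). Between 72 and 452 counts lay behind these values. The fitted log2 fold change of normalized counts was 1.26 (standard error, SE, 0.29), or 2.39-fold. Among the 17495 genes tested, 19 genes (0.109%), *Gpnmb* included, had a fitted change at least as far upward, and the groups did not overlap in the upward direction, in normalized CPM, in 0.789% of genes. Since *Gpnmb* was chosen for this contrast, nothing is read from its place in that order.

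**Figure D1:**
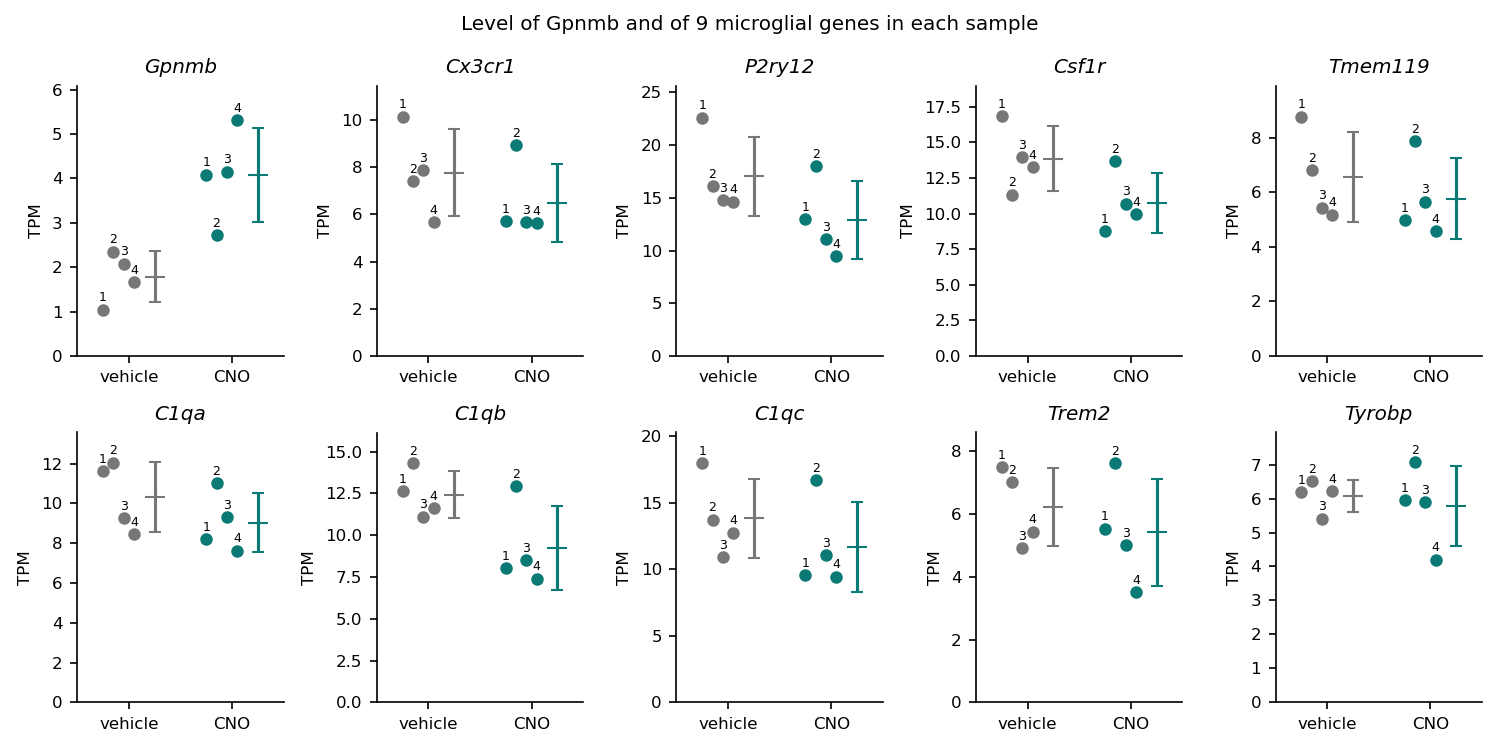
Level (TPM, linear axes from 0) of *Gpnmb* and of the 9 microglial genes in each sample; points are samples with their replicate numbers, grey for vehicle and teal for CNO, and the bars beside them are the mean ± SD of 4 samples. *Gpnmb* is the only one of the 10 panels in which the groups do not overlap, and CNO replicate 2 is the highest CNO sample in all 9 microglial panels and the lowest for *Gpnmb*.

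None of the 9 microglial genes had a detected rise with CNO. In the fit across all genes, 8 of the 9 had a fold change below 0, as had 49.6% of all genes tested, and 0 of the 9 had an adjusted p under 0.05, as had 0% of all genes at the full call rule (over 1.5-fold, mean above 1 TPM). The unadjusted p was under 0.05 for 1 of the 9 (*P2ry12*, downward), against 4.09% of all genes in either direction and 2.65% downward. No microglial gene passed 1.5-fold upward, as 1.34% of all genes did. The median log2 fold change of the 9 was −0.19, and that of all tested genes was 0.0014, with quartiles at −0.138 and 0.136. In pooled tissue, fewer microglia and less RNA per microglial cell cannot be told apart, nor can either be told from a smaller carry-over of RNA from cells without the tag.

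Of the receptors that sense the surroundings of microglia, *P2ry12*, the receptor for ADP that guides their processes, was the most abundant of the 9 genes. It measured 12.97, 17.98, 11.1 and 9.48 TPM in CNO replicates 1 to 4 and 22.6, 16.1, 14.8 and 14.6 TPM in vehicle replicates 1 to 4. Thus 3 CNO samples lay below every vehicle sample, whereas CNO replicate 2 exceeded 3 vehicle samples. Its log2 fold change was −0.38 (SE 0.17), with an unadjusted p = 0.0440 and an adjusted p = 0.817 in edgeR's quasi-likelihood test. *Cx3cr1*, the fractalkine receptor, measured 5.72, 8.94, 5.67 and 5.62 TPM with CNO and 10.1, 7.42, 7.87 and 5.66 TPM with vehicle. The groups overlapped through CNO replicate 2 and vehicle replicate 4, and the log2 fold change was −0.19 (SE 0.18, adjusted p = 0.817 from edgeR). *Csf1r*, the receptor for CSF1 and IL-34 on which microglia depend for survival, measured 8.74, 13.7, 10.7 and 9.96 TPM with CNO and 16.8, 11.3, 14.0 and 13.3 TPM with vehicle. Again 3 CNO samples lay below every vehicle sample and CNO replicate 2 did not, and the log2 fold change was −0.28 (SE 0.13, unadjusted p = 0.0570, adjusted p = 0.817 from edgeR). *Tmem119*, a surface protein used to tell microglia from other macrophages, measured 4.98, 7.89, 5.66 and 4.58 TPM with CNO and 8.78, 6.81, 5.44 and 5.19 TPM with vehicle. Its groups overlapped over most of their range, with a log2 fold change of −0.11 (SE 0.19, adjusted p = 0.878 from edgeR).

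The 3 chains of C1q, the recognition molecule that starts the classical complement cascade, overlapped between the groups, and none passed the test. *C1qb* measured 8.05, 12.9, 8.52 and 7.41 TPM with CNO and 12.6, 14.3, 11.1 and 11.6 TPM with vehicle, with 3 CNO samples below every vehicle sample. *C1qc* measured 9.57, 16.7, 11.04 and 9.44 TPM with CNO and 17.9, 13.7, 10.9 and 12.7 TPM with vehicle, and *C1qa* measured 8.19, 11.03, 9.32 and 7.63 TPM with CNO and 11.6, 12.04, 9.26 and 8.44 TPM with vehicle. In each of the 3, CNO replicate 2 was the highest CNO sample and reached into the vehicle range. The log2 fold changes were −0.37 (SE 0.18, unadjusted p = 0.0626) for *C1qb*, −0.17 (SE 0.18, unadjusted p = 0.382) for *C1qc* and −0.12 (SE 0.17, unadjusted p = 0.477) for *C1qa*, with adjusted p of 0.817 or more in edgeR's test.

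*Trem2*, the lipid-sensing receptor, measured 5.53, 7.60, 5.00 and 3.51 TPM with CNO and 7.48, 7.01, 4.89 and 5.42 TPM with vehicle. *Tyrobp*, which encodes DAP12, the adaptor through which TREM2 signals, measured 5.94, 7.08, 5.90 and 4.20 TPM with CNO and 6.18, 6.51, 5.41 and 6.21 TPM with vehicle. In TPM, the highest and the lowest of the 8 samples were CNO samples (replicates 2 and 4) in both genes. In normalized CPM the highest *Trem2* sample was vehicle replicate 1 (10.06 CPM, against 8.43 CPM in CNO replicate 2). The log2 fold change of *Trem2* was −0.26 (SE 0.21, adjusted p = 0.817 from edgeR). That of *Tyrobp* was 0.0046 (SE 0.22, adjusted p = 0.998 from edgeR) and changed sign under 10 of 17 other settings, and *Tyrobp* had the fewest counts of the 10 genes, 36 to 57 per sample. In a two-sided exact permutation test over the 70 ways to divide 8 samples into 4 and 4, which cannot give a p below 0.0286, the 9 microglial genes gave p from 0.114 (*P2ry12*, *Csf1r* and *C1qb*) to 0.971 (*Tyrobp*), unadjusted.

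By mean TPM, the order of the microglial genes differed in part between the groups. *P2ry12* was highest with 12.9 ± 3.69 TPM with CNO against 17.03 ± 3.78 TPM with vehicle (SD, n = 4 each), followed in vehicle samples by *Csf1r* (13.9 ± 2.28) and *C1qc* (13.8 ± 2.98), whose order was the reverse with CNO (10.8 ± 2.11 and 11.7 ± 3.41). *Trem2* (6.20 ± 1.24) and *Tyrobp* (6.08 ± 0.469) were lowest in vehicle samples. The ranges of neighbours in the vehicle order overlapped within both groups, although *C1qa* exceeded *Cx3cr1* in each of the 8 samples. *Gpnmb*, at 1.78 TPM, stood below all 9 in vehicle samples, and at 4.07 TPM it was still below the mean of each of them with CNO.

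**Figure D2:**
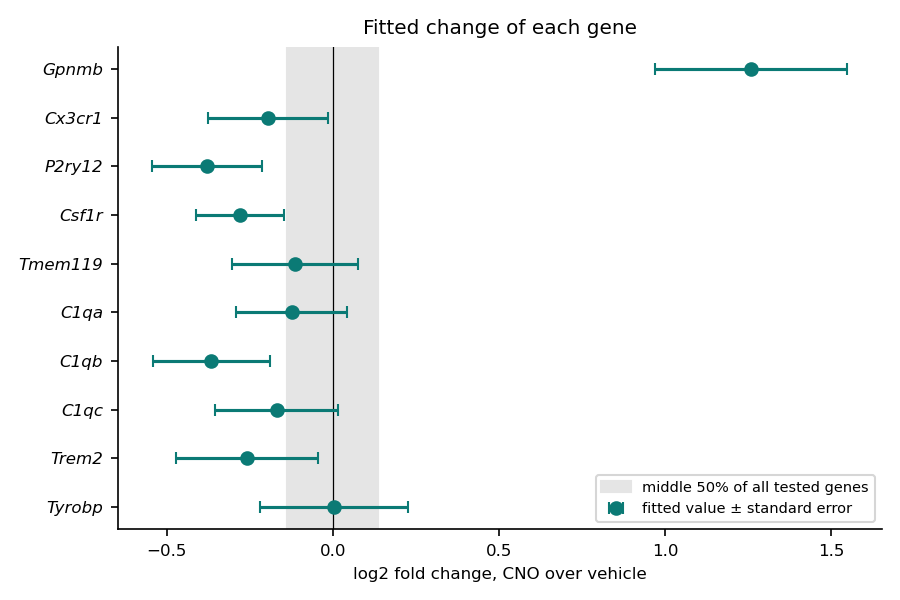
Fitted log2 fold change of CNO over vehicle for each gene (points) with its standard error (bars); the grey band spans the middle 50% of all 17495 tested genes, from −0.138 to 0.136. *Gpnmb* lies at 1.26, while 8 of the 9 microglial genes lie below 0 and *Tyrobp* lies at 0.0046.

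*Gpnmb* was next set against the microglial signal of its own sample. The summed level of the 9 microglial genes was 69.7, 103.8, 72.9 and 61.8 TPM in CNO replicates 1 to 4 and 114.2, 95.3, 83.7 and 83.2 TPM in vehicle replicates 1 to 4. Hence vehicle replicate 1 held the most microglial RNA, CNO replicate 2 the second most, and CNO replicate 4 the least. The means were 77.1 ± 18.4 TPM with CNO against 94.1 ± 14.5 TPM with vehicle (SD, n = 4 each), a ratio of 0.819. Per 100 TPM of these 9 genes, *Gpnmb* measured 5.86, 2.62, 5.69 and 8.60 TPM with CNO and 0.913, 2.46, 2.49 and 2.00 TPM with vehicle. The groups did not overlap on this scale, although CNO replicate 2 lay only just above vehicle replicate 3, and the ratio of the means was 2.89. On the log2 CPM scale, *Gpnmb* minus the mean of the 9 genes was 0.27 ± 0.71 with CNO against −1.21 ± 0.67 with vehicle (SD, n = 4 each), a difference of 1.48. This difference holds the contrast by which *Gpnmb* was chosen and carries no test.

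Whether *Gpnmb* moved with the microglial genes was then asked within groups, where the difference between CNO and vehicle plays no part. Each gene was expressed as its deviation, in log2 CPM, from the mean of its own group, over 8 samples. *Gpnmb* correlated negatively with each of the 9 genes, with a median Pearson r of −0.645. The values were −0.834 for *P2ry12*, −0.806 for *C1qc*, −0.734 for *Tmem119*, −0.712 for *Trem2*, −0.645 for *Csf1r*, −0.577 for *Cx3cr1*, −0.368 for *C1qb*, −0.347 for *Tyrobp* and −0.287 for *C1qa*. By contrast, 35 of the 36 pairs among the 9 microglial genes correlated positively, with a median r of 0.677, and the median r of *Gpnmb* with all other tested genes was −0.022. Negative medians were not particular to microglial genes. Marker lists of oligodendrocytes (−0.709), astrocytes (−0.665) and pyramidal cells (−0.632) had similar ones, while endothelial (0.019) and mural (0.043) lists did not. In two-sided exact permutation tests over all orders of samples within groups, the lowest p were 0.0295 (*P2ry12*) and 0.0382 (*C1qc*), and after Benjamini-Hochberg adjustment over the 9 genes these were both 0.172, so that none passed. Spearman's rho ran from −0.143 (*C1qa*) to −0.691 (*P2ry12*), with adjusted exact permutation p from 0.50 to 0.780.

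The negative relation rested on 2 samples. In the deviations of *Gpnmb*, the samples farthest from the median were CNO replicate 2 and vehicle replicate 1, the ones with the most microglial RNA and the least *Gpnmb* in their groups. Without them, r ran from −0.460 (*Tyrobp*) to 0.715 (*Cx3cr1*), with 5 of 9 positive and a median of 0.060. These samples also stood at the low end of the PV+ interneuron markers of their groups. The mean of 11 such markers (*Pvalb*, *Gad1*, *Gad2*, *Slc32a1* and 7 others) was 7.31, 6.67, 7.16 and 7.53 log2 CPM in CNO replicates 1 to 4 and 5.59, 6.86, 7.13 and 7.03 log2 CPM in vehicle replicates 1 to 4. CNO replicate 4, with the most *Gpnmb* and the least microglial RNA, was the highest.

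**Figure D3:**
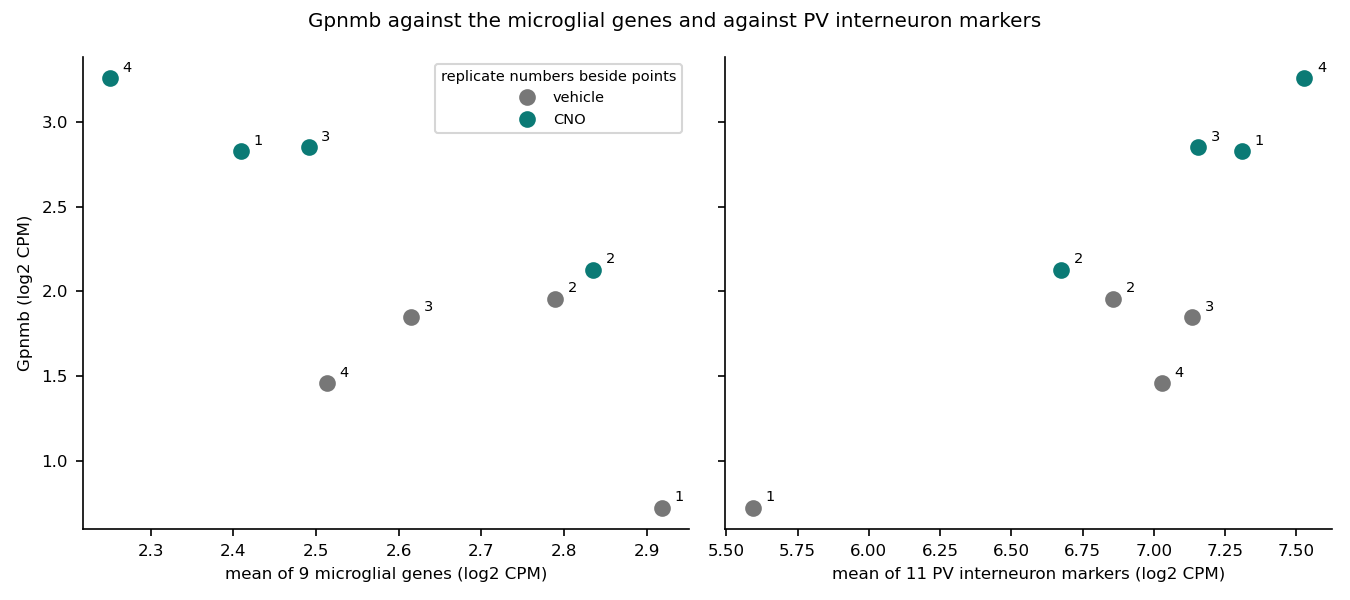
Level of *Gpnmb* (log2 CPM) in each sample against the mean of the 9 microglial genes (left, log2 CPM) and against the mean of 11 PV+ interneuron markers (right, log2 CPM); grey points are vehicle samples and teal points CNO samples, with replicate numbers. Within each group the sample with the least *Gpnmb* (vehicle replicate 1 and CNO replicate 2) has the most microglial signal and the least PV+ marker signal.

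All 11 PV+ interneuron markers correlated positively with *Gpnmb* within groups, with r between 0.777 and 0.917 and a median of 0.885. Such values were common, since 21.5% of all other tested genes had an r of 0.777 or more. Without CNO replicate 2 and vehicle replicate 1 the median was 0.332, and 9 of 11 were positive. The 11 markers also had fold changes above 0 with CNO (median log2 fold change 0.43, against 50.4% of all genes above 0), from 0.15 (*Kcnc1*, a potassium channel of fast-spiking cells) to 0.63 (*Slc32a1*, the vesicular GABA transporter), and 1 of 11 had an unadjusted p under 0.05 upward, against 1.44% of all genes. *Gad1*, which encodes a GABA-synthesizing enzyme, was the most abundant of them (1227 TPM, mean of 8 samples). Without vehicle replicate 1 the median change of these markers was 0.20, that of the 9 microglial genes was −0.10 and the log2 fold change of *Gpnmb* was 1.05. With the difference between PV+ and pyramidal cell markers of each sample as a covariate, a setting added after the data had been seen, the median of the microglial genes was −0.0086, with 5 of 9 below 0, and *Gpnmb* was at 0.82. The covariate was built from these same PV+ markers, so that their own median under it, 0.0045, was near 0 by construction. The part that the share of PV+ interneuron RNA had in the difference of *Gpnmb* was not tested.

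**Figure D4:**
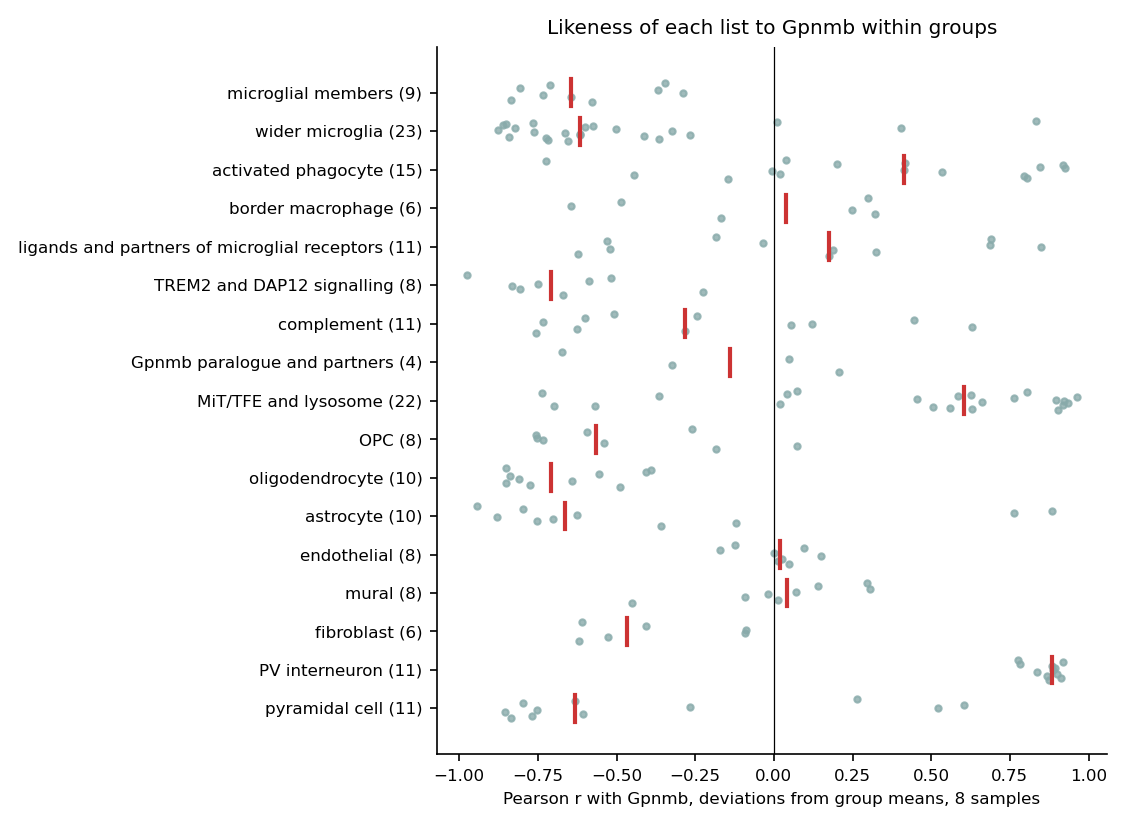
Pearson r of each gene with *Gpnmb*, from deviations of log2 CPM from group means over 8 samples, by gene list; points are tested genes (their number in brackets) and red bars list medians. The 11 PV+ interneuron markers sit between 0.777 and 0.917 and the 9 microglial genes between −0.834 and −0.287.

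A wider list of 24 microglial genes, of which 23 were found and tested, had its genes mostly below 0, like the 9. Of these, 21 had a fold change below 0 and 2 above, with a median of −0.26, and 2 had an unadjusted p under 0.05, both downward (*Olfml3* and *Slc2a5*), beside 49.6% of all genes below 0 and 2.65% at such a p downward. In normalized CPM the groups did not overlap in 1 of the 23 (*Olfml3*, named after its values were seen), beside 1.63% of all genes downward. In TPM they also did not overlap for *Slc2a5* and *Runx1*, with CNO lower, the latter named after its values were seen. The share of all genes was not computed on that scale. The fructose transporter gene *Slc2a5* was lowest (−0.54, SE 0.21) and *Ly86*, which encodes a partner of a Toll-like receptor family member, was highest (0.24, SE 0.37). The summed level of the list was 121.3, 157.0, 132.1 and 109.4 TPM in CNO replicates 1 to 4 and 186.0, 158.3, 151.1 and 145.1 TPM in vehicle replicates 1 to 4, so that again only CNO replicate 2 lay within the vehicle range. Without vehicle replicate 1 the median change was −0.20, and with the marker covariate −0.10. Within groups, 20 of the 23 genes correlated negatively with *Gpnmb* (median r −0.616), and 12 of 23 did so without CNO replicate 2 and vehicle replicate 1 (median −0.192).

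The ligands that act on the microglial receptors, several of which neurons make, had no member past the test. Of 11 ligands and partners, 9 had a fold change below 0 and 2 above, with a median of −0.05 and 0 at an unadjusted p under 0.05. *Cx3cl1*, the neuronal ligand of CX3CR1, was abundant at 268.9 ± 25.1 TPM with CNO against 315.3 ± 23.6 TPM with vehicle (SD, n = 4 each), with a log2 fold change of −0.17 (SE 0.11, adjusted p = 0.817 from edgeR). *Il34*, the neuronal ligand of CSF1R, had a log2 fold change of −0.05 (SE 0.10), and *Csf1*, its other ligand, one of −0.05 (SE 0.20). *Cd200*, a neuronal surface protein that restrains microglia through the receptor CD200R1, had a log2 fold change of −0.08 (SE 0.09), and *Cd47*, a signal against phagocytosis, one of 0.11 (SE 0.12). *Entpd1*, an enzyme that breaks down the ATP and ADP sensed by nucleotide receptors, was lowest at −0.34 (SE 0.23).

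Of 8 genes that act downstream of TREM2 and DAP12, oppose them or shed TREM2, 7 had a fold change below 0 (median −0.36). The lowest was *Inpp5d*, which encodes the inhibitory phosphatase SHIP1. It measured 4.57 ± 0.89 TPM with CNO against 6.80 ± 1.64 TPM with vehicle (SD, n = 4 each), with a log2 fold change of −0.50 (SE 0.15, unadjusted p = 0.00838, adjusted p = 0.817 from edgeR). In TPM the groups overlapped, with vehicle replicate 3 (4.92 TPM) below CNO replicates 2 and 3 (5.03 and 5.36 TPM), whereas in normalized CPM they did not, as was so downward for 1.63% of all genes. The highest was *Plcg2*, a phospholipase of the same pathway (0.12, SE 0.23), and *Adam10*, the sheddase that cleaves TREM2 and also GPNMB, was the most abundant of the list (16.6 TPM, mean of 8 samples) with −0.12 (SE 0.10). Without vehicle replicate 1 the median of the 8 genes was −0.14, and with the marker covariate −0.07. Among 11 complement genes other than C1q, 7 were above 0 and 4 below (median 0.08), from −0.38 (*C2*, SE 0.30) to 0.68 (*C3*, the central component, SE 0.40), and 0 had an unadjusted p under 0.05. Their median was 0.14 without vehicle replicate 1 (5 of 11 below 0) and 0.17 with the marker covariate (3 of 11).

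Genes that phagocytes switch on together with *Gpnmb* in disease were divided in direction. Of 15 tested genes of this kind (19 were listed), 6 had a fold change above 0 and 9 below, with a median of −0.02. Without vehicle replicate 1, 12 of the 15 were below 0 (median −0.05), and with the marker covariate 11 (median −0.12). Of the 15, 11 correlated positively with *Gpnmb* within groups (median r 0.415, a value that 35.6% of all other tested genes reached), and 12 did so without CNO replicate 2 and vehicle replicate 1 (median 0.323). *Spp1*, which encodes osteopontin, was highest at 0.47 (SE 0.33), with 26.7 ± 5.98 TPM with CNO against 20.1 ± 9.23 TPM with vehicle (SD, n = 4 each). *Igf1*, a growth factor gene, was lowest at −0.42 (SE 0.18, unadjusted p = 0.0400, adjusted p = 0.817 from edgeR). *Apoe*, the lipid carrier that astrocytes also make, was most abundant at 321 TPM (mean of 8 samples), with a log2 fold change of −0.02. Of the defining genes, *Itgax* had at most 3 counts in any sample and *Clec7a* at most 4. *Cst7* (0 to 9 counts) and *Lgals3* (0 to 12 counts) did not pass the filter either. *Cst7* measured 0.35 ± 0.21 TPM with CNO against 0.15 ± 0.16 TPM with vehicle (SD, n = 4 each). *Lgals3* measured 0.41 ± 0.31 TPM against 0.36 ± 0.26 TPM. The markers of macrophages at the borders of the brain had 4 of 6 tested genes above 0 and 2 below (median 0.19), at a summed level of 7.51, 11.03, 9.39 and 7.21 TPM with CNO and 7.004, 9.88, 7.28 and 8.19 TPM with vehicle. This median was 0.09 without vehicle replicate 1 (2 of 6 below 0) and 0.10 with the marker covariate (0 of 6). In this list *Lyve1* was highest (0.40, SE 0.48), *F13a1* lowest (−0.18, SE 0.29) and *Stab1* most abundant (2.57 TPM, mean of 8 samples).

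The paralogue and binding partners of GPNMB showed no rise past the test. *Pmel*, its paralogue, had only 4 to 23 counts per sample and did not pass the filter on low counts. It measured 0.0914, 0.0984, 0.184 and 0.110 TPM with CNO and 0.486, 0.314, 0.521 and 0.255 TPM with vehicle, so the groups did not overlap in TPM and the vehicle samples were the higher ones. The share of genes with no overlap was computed in normalized CPM for the genes that passed the filter, and no such share was computed for genes of so few counts. In the fit with no filter its log2 fold change was −1.61 (SE 0.47, adjusted p = 0.747 from edgeR). The log2 fold changes of the partners were 0.10 for *Cd44* (SE 0.35), 0.01 for the proteoglycan gene *Sdc4* (SE 0.14), 0.06 for the integrin gene *Itga5* (SE 0.25) and 0.0055 for its partner *Itgb1* (SE 0.10), with unadjusted p of 0.788 or more.

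The microphthalmia family of transcription factors and the lysosomal genes it can drive had 17 of 22 tested genes above 0 and 5 below, with a median of 0.06 and 0 at an unadjusted p under 0.05. Without vehicle replicate 1, 8 of the 22 were below 0 (median 0.04), and with the marker covariate 12 were (median −0.02). *Mitf* was highest with a log2 fold change of 0.40 (SE 0.25, adjusted p = 0.817 from edgeR), at 4.05 ± 0.69 TPM with CNO against 3.41 ± 1.09 TPM with vehicle (SD, n = 4 each), and its groups overlapped. *Rragd*, a GTPase of lysosomal nutrient sensing, was lowest at −0.16 (SE 0.10), and *Sqstm1*, an autophagy receptor, was most abundant (370.9 TPM, mean of 8 samples) with 0.16 (SE 0.17). In TPM the groups did not overlap for *Rragd* and *Mcoln1*, with CNO lower, the latter named after its values were seen. In normalized CPM both overlapped, and the share of all genes was not computed in TPM. Within groups, 18 of the 22 correlated positively with *Gpnmb*, with a median r of 0.606, a value that 29.2% of all other tested genes reached, and a range from −0.738 to 0.962. The r of the 3 family members tested was 0.903 for *Mitf*, which 11% of all other tested genes reached, 0.630 for *Tfeb* and 0.561 for *Tfe3*. Without CNO replicate 2 and vehicle replicate 1 the median was 0.400 with 17 positive. Markers of melanocytes, in which MITF and PMEL act together, were at or near 0: *Tyr*, *Tyrp1*, *Mlana* and *Slc45a2* had at most 3 counts in any sample, and *Dct* had 2 to 10.

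**Figure D5:**
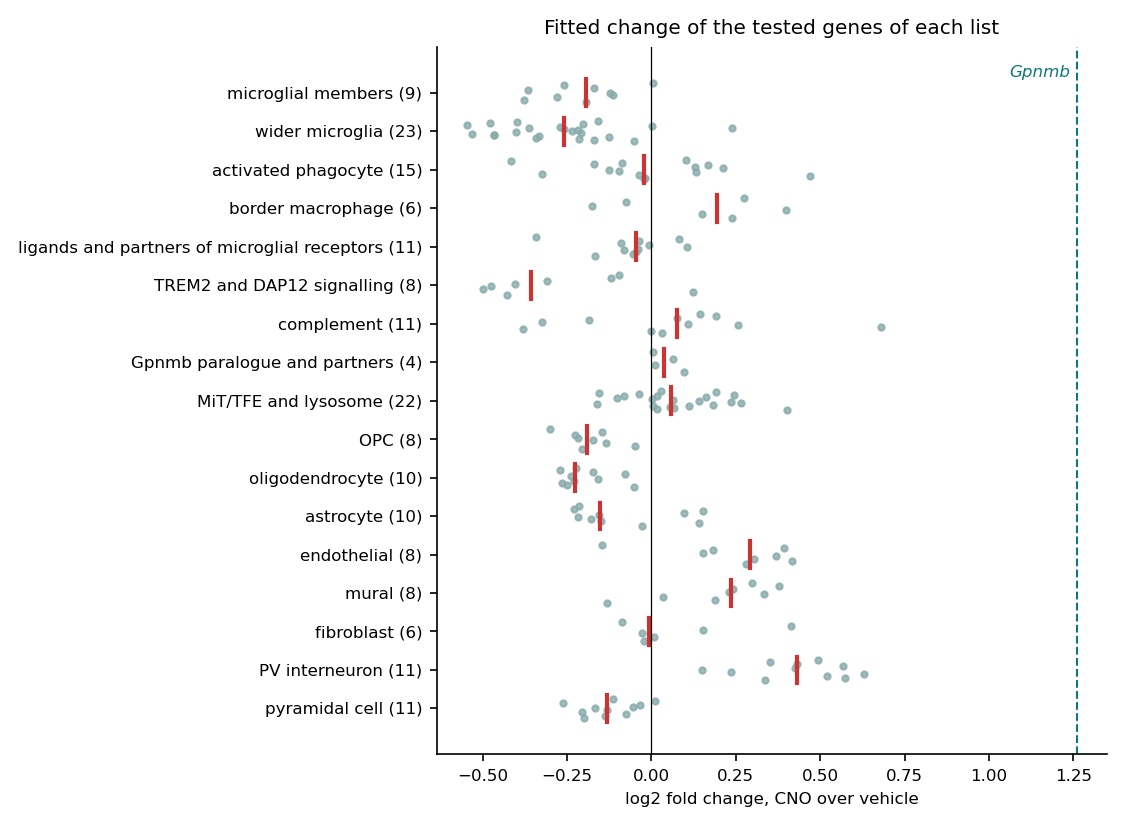
Fitted log2 fold change of CNO over vehicle for each list with more than 1 tested gene (points, their number in brackets) with list medians (red bars); the dashed line marks *Gpnmb* at 1.26. No gene shown reaches *Gpnmb*, and the medians shown run from −0.36 (TREM2 and DAP12 signalling) to 0.43 (PV+ interneuron markers).

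Markers of other cells that the pulldown could carry were measured in the same samples, and the source of this RNA was not tested. Oligodendrocyte genes had fold changes below 0 in 10 of 10 (median −0.23), from −0.27 (*Opalin*) to −0.05 (*Mbp*, a myelin protein), and those of their precursors in 8 of 8 (median −0.19), from −0.30 (*C1ql1*) to −0.05 (*Cspg4*). These medians were −0.17 (10 of 10 below 0) and −0.15 (7 of 8) without vehicle replicate 1. They were −0.10 (7 of 10) and −0.10 (7 of 8) with the marker covariate. Pyramidal cell genes were below 0 in 10 of 11 (median −0.13) and astrocyte genes in 7 of 10 (median −0.15). Their medians were −0.09 (10 of 11 below 0) and −0.07 (7 of 10) without vehicle replicate 1. With the marker covariate, which holds the pyramidal cell markers, they were −0.03 (6 of 11) and −0.0079 (7 of 10). Endothelial genes were above 0 in 7 of 8 (median 0.29) and mural cell genes in 7 of 8 (median 0.24), whereas fibroblast genes were divided 3 and 3. Without vehicle replicate 1 the endothelial and mural medians were 0.24 (1 of 8 below 0) and 0.12 (2 of 8). They were 0.23 (1 of 8) and 0.15 (1 of 8) with the marker covariate. Of the 6 fibroblast genes, 4 and 1 were below 0 in these settings. None of these genes had an unadjusted p under 0.05. The summed level of the 10 oligodendrocyte genes was 632.8, 1060, 816.3 and 590.9 TPM in CNO replicates 1 to 4 and 1044, 813.8, 881.2 and 873.5 TPM in vehicle replicates 1 to 4. As with the microglial genes, CNO replicate 2 and vehicle replicate 1 were the highest of their groups and CNO replicate 4 was the lowest. Each of the 10 correlated negatively with *Gpnmb* within groups (median r −0.709, and −0.398 without those 2 samples), while endothelial and mural genes had median r of 0.019 and 0.043. The median r was −0.665 for astrocyte, −0.632 for pyramidal cell, −0.566 for oligodendrocyte precursor and −0.468 for fibroblast genes. Without those 2 samples these medians were −0.284, −0.180, −0.349 and −0.380. Leukocytes of the blood were barely present, with *S100a8*, *S100a9*, *Cd3e* and *Cd8a* at no more than 3 counts, *Ly6g* listed at 0 in all samples, and only *Cd4* of 8 markers passing the filter (−0.58, SE 0.35). The part of these cell types in the difference of *Gpnmb* was not tested.

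The genes most like *Gpnmb* were sought among the 15172 other tested genes with a mean above 1 TPM. Over all 8 samples, which includes the contrast that chose *Gpnmb*, these were *Cdpf1* (r = 0.991), *Cenpa* (0.981), *Phactr2* (0.977), *Wt1* (0.977) and *Gpbp1l1* (0.972). In deviations from group means they were *Mrpl13* (r = 0.996), *Ggct* (0.995), *Mrpl16* (0.993), *Gm20498* (0.993) and *Arf6* (0.993). The 2 sets shared no gene, and neither held a microglial gene of the lists. With 8 samples that share the depth and composition differences described above, these values describe likeness only. Of all tested genes, between 4.21% (for *P2ry12*) and 38.8% (for *C1qa*) had a lower within-group r with *Gpnmb* than the microglial gene had. Over all 8 samples, which again includes that contrast, the share was between 1.03% (*P2ry12*) and 41.9% (*Tyrobp*).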

How the data were processed

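Ribosome-associated mRNA was obtained by anti-HA pulldown from pooled cortex of 4 mice per sample and sequenced paired-end from an unstranded SMARTer Ultra Low library. Per the labels and methods, the authors used FastQC and Trim Galore on the reads, STAR (GRCm38, mm10) for alignment, Salmon for quantification and tximport for import. The deposited matrices held estimated counts and TPM per gene for each of 8 samples, and 0 sample columns were left unused. The estimated counts, which the authors had not normalized, were rounded to whole numbers. Replicates are described as biological, and no other batch is labelled.

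Genes with fewer than 10 counts in at least 4 samples were left out, which kept 17495 of 45706 genes, all 10 studied genes among them. The fit used edgeR 4.0.16 in R 4.3.3 with TMM scaling (common biological coefficient of variation 0.183), the quasi-likelihood test and Benjamini-Hochberg adjustment over all 17495 genes. To be called, a gene needed a mean above 1 TPM, over 1.5-fold change and an adjusted p under 0.05. Per-sample log2 CPM used a prior count of 2. Alternatives were edgeR's likelihood ratio test with robust dispersions, DESeq2 1.42.0, limma 3.58.1 on log2 TPM with a pseudocount of 1 or 0.1, other scaling, no filter, a replicate block and leaving out each sample. Exact permutation tests and correlations were written in Python 3.11.15, with ranks from SciPy 1.17.1, and scripts were tested on simulated data. The main test differs from the robust-dispersion method stated by the authors, which stands among the alternatives.

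*Gpnmb*, the 9 microglial genes, the other gene lists and the motifs were chosen with earlier results of these data known, so counts over lists are descriptions. Named in the text were the 10 genes, all ligands, paralogues and partners, the most abundant, highest and lowest gene of every other list, defining markers at or near 0 and the genes most like *Gpnmb*. One gene that this rule would name is not reported here. Further genes are named only as members of a list (*Pvalb*, *Gad2*, *Tfeb* and *Tfe3*) or as said in the text. In GENCODE M21, 45143 of 45706 gene IDs were found, and promoter sequences came from RefSeq (GRCm38.p6).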

Additional observations from a re-analysis of the deposited data

Results flagged for a closer look

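In 12 measures (the 10 genes, the summed microglial level and *Gpnmb* relative to it), each group of 4 samples was examined for a sample whose gap to its nearest neighbour took up more of the range of the group than Dixon's 95% critical value. Of 24 groups, 2 held such a sample, and chance gives about 1 in 20 groups, or 1.2 of 24. *Cx3cr1* in CNO replicate 2 (gap 0.913 of the range) stood at 3.58 log2 CPM while the other CNO samples lay between 3.03 and 3.08. *C1qb* in vehicle replicate 2 (gap 0.855 of the range) stood at 2.58 log2 CPM while the other vehicle samples lay between 2.23 and 2.28. *Gpnmb* was not among them.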

How the results depend on the processing

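No gene was called in the main fit (716 at an unadjusted p under 0.05), and 12 were called by the likelihood ratio test with robust dispersions, 10 by DESeq2, 4 with no filter on low counts and 0 to 2 when 1 sample was left out (2 without CNO replicate 1). None of the 9 microglial genes is described as called in the text, and the cause of these differences was not tested. The log2 fold change of *Gpnmb* was above 0 in all 17 alternatives, from 0.82 with the marker covariate to 1.43 without CNO replicate 2, and between 1.05 and 1.43 with 1 sample left out. On the log2(TPM + 1) scale, which understates changes of low genes, it was 0.86. The median change of the 9 microglial genes ran from −0.34 to −0.0086, and from −0.34 to −0.097 with 1 sample left out. The number of these genes below 0 was 8, and between 8 and 9 with 1 sample left out, but 5 with the marker covariate, a setting chosen after seeing the data. The number at an unadjusted p under 0.05 was 1, and between 0 and 3 with 1 sample left out. The difference between *Gpnmb* and the microglial mean stayed between 1.11 and 1.81, and the median within-group r between −0.77 and −0.45. Values changed sign for *Tmem119* (0.138 with the covariate, and from −0.258 to 0.0251 with 1 sample left out, the highest without vehicle replicate 1), *C1qc* (0.0518 with the covariate) and *Trem2* (0.0228 with the covariate), the cause of which was not tested. *Tyrobp*, at 0.0046, became −0.0471 with library sizes alone, −0.0770 and −0.0916 on log2(TPM + 1) and log2(TPM + 0.1), −0.0078 with the replicate block, and lay between −0.0831 and 0.119 with 1 sample left out. Those 3 scalings also moved the median of all genes to −0.05, −0.06 and −0.08.

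Samples of both groups carry replicate numbers 1 to 4. Same-numbered samples deviated together with r of 0.026, −0.030, 0.161 and 0.239, not every one above 0.1, so they are taken to share only a number. With the replicate block, *Gpnmb* was at 1.27, the median of the microglial genes at −0.19 with 9 of 9 below 0, 2 of 9 at an unadjusted p under 0.05, and 0 genes were called. Across same-numbered samples the mean difference between *Gpnmb* and the microglial mean was 1.48.

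Depth limits *Tyrobp* most, with 36 to 57 counts per sample. With 4 samples per group, the differences fitted for the 9 microglial genes did not pass the adjusted threshold in the main fit, which does not show that their levels were equal.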
